A study of Mus musculus with 6 samples.

Results

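The genes described here are 8 chemokine receptors of effector T cells, Ccr1, Ccr2, Ccr3, Ccr4, Ccr8, Ccr9, Cxcr4 and Cxcr6. They were taken by symbol from the deposited tables, which hold 21233 genes, and leave aside the receptors typical of naive, Th1, Th17 and follicular cells. All 8 were in the tables and 7 passed the filter on low counts. The 6 libraries were made from mouse Th9 cells, helper T lymphocytes named after the interleukin 9 they secrete. Of these, 3 were untreated (Ctrl 1 to 3) and 3 were treated with sorafenib (Sora 1 to 3), a small-molecule inhibitor of RAF and of several receptor tyrosine kinases. Strain, age, dose, time of exposure and culture conditions were not given in the sources used here. Nothing in the labels ties the replicates to separate cultures or animals. All p-values therefore measure the spread among these libraries alone, which may be technical.

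Chemokine receptors span the membrane as G protein coupled receptors and signal through inhibitory G proteins to steer a cell along a gradient of ligand. Effector T cells exchange the receptors that hold naive cells in lymph nodes for receptors that read ligands of inflamed or barrier tissue. CCR4 and CCR8 mark type 2 and regulatory T cells of skin and lung, CXCR4 retains many leukocytes near CXCL12, CXCR6 binds CXCL16, CCR9 leads to the small intestine, and CCR1, CCR2 and CCR3 are best known on monocytes, granulocytes and effector T cells.

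Library totals lay between 36981476 and 38126521 counts, and levels are given as CPM, read counts scaled to a common library size with TMM factors. A count of 0 allows up to 3 counts, or 0.0766 to 0.0871 CPM, for counting error alone. Control replicate 2 stood apart. Its 100 most abundant genes took 31.8% of its counts against 27.3% to 28.6% in the other libraries, and its root-mean-square log2 distance from the other controls was 0.49 against 0.29 to 0.38 for the other libraries. T cell markers were abundant in all 6 libraries, with Cd3e at 207 ± 14.03 CPM without and 167 ± 5.45 CPM with sorafenib (SD, n = 3) and Cd4 at 476 ± 35.9 and 496 ± 10.7 CPM. Of 12 T cell markers tested, 0 were called higher and 7 lower with sorafenib, beside 8.51% and 9.43% of all tested genes. The 7 were Cd2, Cd28, Cd3e, Cd3g, Cd247, Lck and Cd6. The summed level of the 12 markers was 3432 to 3502 CPM in control and 2913 to 3019 CPM in sorafenib libraries. In bulk RNA, fewer cells of a type and less transcript per cell cannot be told apart.

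Sorafenib-treated cells had less transcript of Cxcr4, Ccr4, Ccr2 and Ccr3 and more of Ccr8. With the threshold set at an adjusted p of 0.05 in edgeR, 4 of the 7 tested receptors were called lower and 1 higher. Over all 13255 tested genes 17.9% were called, 9.43% lower and 8.51% higher, and without TMM factors (total counts only) the calls were 1496 higher and 826 lower in place of 1128 higher and 1250 lower. The control and sorafenib libraries did not overlap for 6 of the 7, against 36.3% of all tested genes. The members were chosen with earlier results of these data known, so these counts only describe the list. Leaving out control replicate 2 made Cxcr6 a second receptor called higher, and leaving out sorafenib replicate 1 or 3 ended the call of Ccr8. No setting of those tried turned the direction of any tested receptor.

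**Figure D1:**
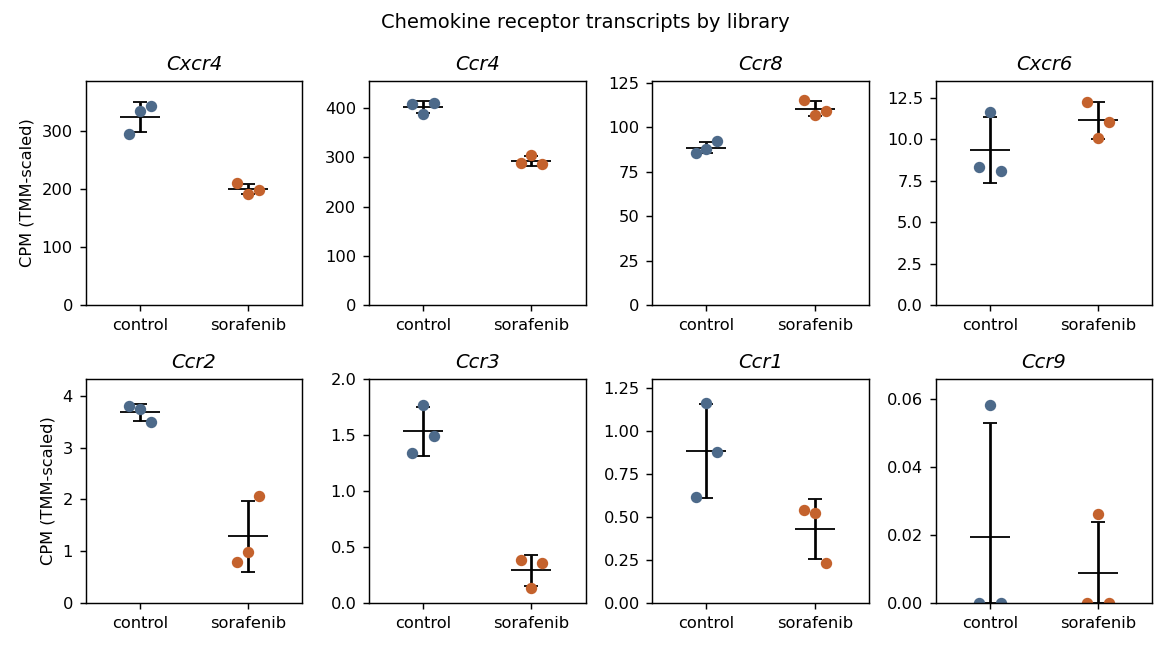
TMM-scaled CPM of each receptor (y axes, each from 0 and with its own scale) in the 3 control and 3 sorafenib libraries. Points are libraries, horizontal bars are group means and error bars are SD, drawn no lower than 0. Every sorafenib point lies below every control point for Cxcr4, Ccr4, Ccr2, Ccr3 and Ccr1 and above it for Ccr8, while the groups overlap for Cxcr6 and Ccr9.

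The start regions of Ccr4, Cxcr4, Ccr8 and Ccr3 are shown because they represent the abundant receptors that moved apart and the receptor with the largest fall among the 7 tested. They run from 250 bases before to 50 after the start of the gene, 5′ to 3′, as RefSeq gives them on GRCm38.p6, a different build from the GRCm39 of the counts. All 8 receptors had an entry. Capitals mark matches on either strand to the motifs of AP-1, GATA and NFAT factors. AP-1 was searched as TGANTCA. The GATA motif was searched as AGATAA. For NFAT the letters were GGAAA.
Ccr4, chr9:114496495-114496794, minus strand: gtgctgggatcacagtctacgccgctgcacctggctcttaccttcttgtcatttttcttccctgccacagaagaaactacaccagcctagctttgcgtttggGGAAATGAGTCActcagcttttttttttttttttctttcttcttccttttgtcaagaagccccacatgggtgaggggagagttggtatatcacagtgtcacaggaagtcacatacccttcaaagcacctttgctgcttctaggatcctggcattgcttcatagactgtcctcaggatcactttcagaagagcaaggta
Cxcr4, chr1:128592250-128592549, minus strand: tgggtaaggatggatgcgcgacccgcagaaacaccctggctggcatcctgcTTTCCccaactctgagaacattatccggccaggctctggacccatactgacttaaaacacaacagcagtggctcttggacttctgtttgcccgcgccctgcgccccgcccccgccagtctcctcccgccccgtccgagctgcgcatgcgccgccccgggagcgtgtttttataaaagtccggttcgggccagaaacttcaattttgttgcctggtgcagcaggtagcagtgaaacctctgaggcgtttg
Ccr8, chr9:120091883-120092182, plus strand: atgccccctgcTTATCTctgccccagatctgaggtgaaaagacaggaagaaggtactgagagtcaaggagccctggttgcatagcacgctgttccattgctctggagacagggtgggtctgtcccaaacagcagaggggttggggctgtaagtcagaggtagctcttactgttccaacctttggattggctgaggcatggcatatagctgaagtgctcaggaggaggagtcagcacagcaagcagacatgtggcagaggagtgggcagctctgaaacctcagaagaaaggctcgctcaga
Ccr3, chr9:124021721-124022020, plus strand: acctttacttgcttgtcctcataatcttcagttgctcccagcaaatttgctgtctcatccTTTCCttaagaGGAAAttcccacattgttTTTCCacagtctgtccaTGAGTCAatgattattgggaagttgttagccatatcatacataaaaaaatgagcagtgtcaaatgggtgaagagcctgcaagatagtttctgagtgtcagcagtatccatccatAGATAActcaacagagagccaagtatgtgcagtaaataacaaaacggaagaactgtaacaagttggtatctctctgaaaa

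The AP-1 letters were in 2 of the 8 receptor regions, Ccr4 and Ccr3, and in 7.81% of 32851 regions of this length in the RefSeq table. In Ccr4 they directly follow a GGAAA match. The GATA letters were in 3 of 8, Ccr8, Ccr3 and Ccr2, and in 11.2% of all regions, and GGAAA was in 6 of 8 and 61.3%. The STAT motif TTCNNNGAA was in 0 of 8 and in 8.3% of all regions. For HIF only the ACGTG form of the core motif was searched, and it was in 0 of 8 and in 19.6% of all regions. The GCGTG form was not searched or counted over all regions. Its letters do occur in the printed region of Cxcr4 and, on the other strand, in that of Ccr8. Base composition differed, with 59.3% G and C in the region of Cxcr4, 54% in Ccr8, 46.3% in Ccr4, 39% in Ccr3 and 38% in Ccr2. A match describes letters only, and no match says only that the letters are not in this window.

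Ccr4, the receptor for CCL17 and CCL22, was among the most abundant receptor transcripts. It was counted at 407, 387 and 411 CPM in the control libraries and at 288, 304 and 287 CPM in the sorafenib libraries. The groups were well apart, and the highest sorafenib library, replicate 2, stood clearly under the lowest control, also replicate 2. Ccr4 fell 1.37-fold (log2 fold change -0.45 ± 0.07 SE, adjusted p = 0.00132 by edgeR).

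Ccr8, the receptor for CCL1 and CCL8 and a marker of tissue regulatory T cells, moved the other way. It was counted at 85.8, 88.1 and 92.1 CPM in control and at 115, 107 and 109 CPM in sorafenib libraries. The groups did not overlap, and the step between them was small. Ccr8 rose 1.25-fold (log2 fold change 0.32 ± 0.07 SE, adjusted p = 0.00822 by edgeR). The adjusted p was 0.0548 with sorafenib replicate 1 left out and 0.0508 with sorafenib replicate 3 left out, so either omission ended the call.

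Cxcr4, the receptor for CXCL12 and the only member that lies on chromosome 1, was counted at 295, 333 and 343 CPM in control and at 210, 192 and 198 CPM in sorafenib libraries. The lowest control library, replicate 1, still stood above the highest sorafenib library. Cxcr4 fell 1.62-fold (log2 fold change -0.70 ± 0.08 SE, adjusted p = 0.000237 by edgeR).

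Cxcr6, the receptor for CXCL16, was less abundant. It was counted at 8.31, 11.6 and 8.07 CPM in control and at 12.3, 10.1 and 11.1 CPM in sorafenib libraries. The groups overlapped because control replicate 2 stood above sorafenib replicates 2 and 3. The log2 fold change was 0.26 ± 0.15 SE and did not pass the test (adjusted p = 0.295), but was 0.44 and passed without control replicate 2 (adjusted p = 0.00935). Cxcr6 lies within the span of Fyco1 in the RefSeq annotation of GRCm38.p6 with 0 bases of exon overlap in GENCODE M21. Fyco1 itself averaged 13.5 CPM without and 12.6 CPM with the drug (adjusted p = 0.782).

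**Figure D2:**
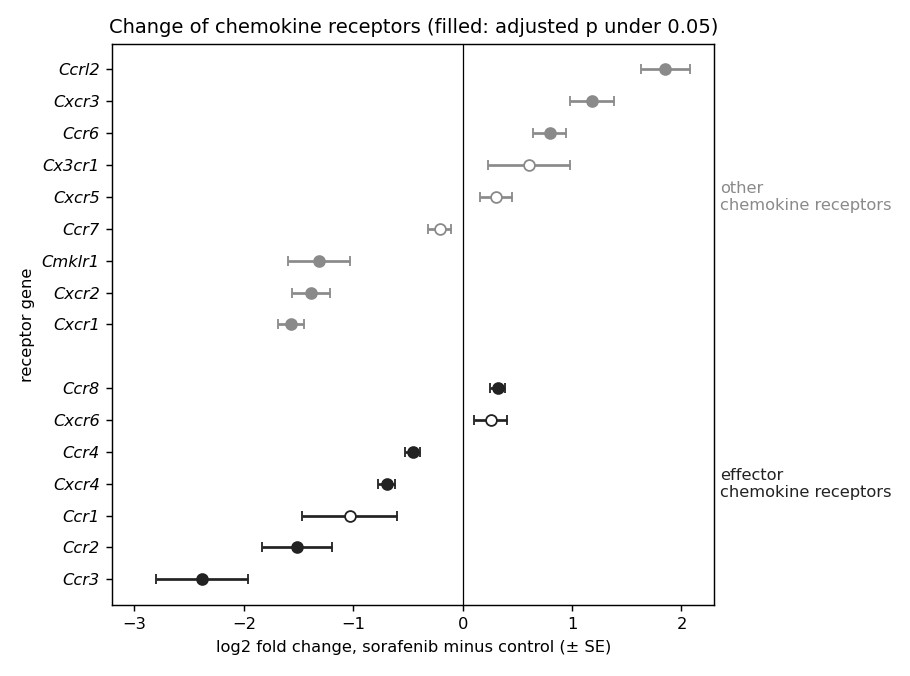
Log2 fold change, sorafenib minus control (x axis), of receptor genes that passed the filter on low counts, each with its SE from edgeR as the error bar. Black points are the effector receptors and grey points 9 other chemokine or chemerin receptors, and filled points have an adjusted p under 0.05. Ccr3 has the lowest value of the effector receptors at -2.38, Ccr8 and Cxcr6 stand above 0, and Ccr1 is unfilled.

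Ccr2, Ccr3 and Ccr1 were scarce in both groups. Ccr2 and Ccr3 fell with sorafenib, and Ccr1 did not pass the test. Ccr2, the receptor for CCL2, was counted at 142, 129 and 131 reads in control and at 31, 38 and 81 reads in sorafenib libraries. Sorafenib replicate 3 lay between the other sorafenib libraries and the controls, at 2.07 CPM against 0.798 and 0.991 CPM. Mean CPM went from 3.68 ± 0.168 to 1.29 ± 0.684 (SD, n = 3), and Ccr2 fell 2.86-fold (log2 fold change -1.51 ± 0.32 SE, adjusted p = 0.00789 by edgeR).

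Ccr3, the eotaxin receptor, was counted at 50, 61 and 56 reads in control and at 15, 5 and 14 reads in sorafenib libraries. Every sorafenib library lay far below every control library. Mean CPM went from 1.53 ± 0.219 to 0.291 ± 0.14 (SD, n = 3), and Ccr3 fell 5.21-fold (log2 fold change -2.38 ± 0.42 SE, adjusted p = 0.0032 by edgeR). Ccr3 reached 10 counts in all 3 control libraries and in 2 of the sorafenib libraries, so it passed the filter through the group in which it was high.

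Ccr1, a receptor for CCL3 and CCL5, was counted at 23, 40 and 33 reads in control and at 21, 20 and 9 reads in sorafenib libraries. The groups did not overlap but sorafenib replicate 1 came within 2 reads of control replicate 1. Ccr1 reached 10 counts in all 3 control libraries and in 2 of the sorafenib libraries, so like Ccr3 it passed the filter through the group in which it was high. The log2 fold change of -1.03 ± 0.44 SE did not pass the test (adjusted p = 0.137). Ccr9, the receptor for CCL25, had 0, 2 and 0 reads in control and 0, 1 and 0 reads in sorafenib libraries. That is at or under the floor of 3 counts in every library. Ccr9 did not pass the filter on low counts, so it was not tested and no fold is given. Its exons also overlap those of other annotated genes in GENCODE M21.

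Ccr1, Ccr2 and Ccr3 are also carried by myeloid cells, so the markers of such cells were read in the same libraries. For comparison, 8.51% of all tested genes were called higher and 9.43% lower. Of 17 eosinophil, basophil and mast cell symbols 11 were in the table and 3 were tested, with 0 called. Their summed level was 19.6 to 21.1 CPM in control and 20.4 to 22.1 CPM in sorafenib libraries, most of it Kit (17.6 ± 0.739 and 18.6 ± 0.658 CPM), and Siglecf, Mcpt8, Mcpt4, Cma1 and Gata2 had at most 3 counts in every library. Of 21 monocyte, macrophage and dendritic cell symbols 16 were in the table and 5 were tested, with 1 called, Flt3, which was higher. Clec7a had 21 to 26 counts in control and 2 to 14 in sorafenib libraries (adjusted p = 0.0528 by edgeR). Adgre1 had 7 to 11 and 18 to 27 counts (adjusted p = 0.12). Each passed the filter only through the group in which it was high. Cd68 stood at 6.72 ± 1.76 and 6.46 ± 1.03 CPM (adjusted p = 0.884). The summed level of this list was 8.44 to 12.3 CPM in control and 13.4 to 14.03 CPM in sorafenib libraries, and Csf1r, Lyz1, Cd14, Xcr1 and C1qc had at most 3 counts in every library. Of 13 neutrophil symbols 7 were in the table and 3 were tested, with 2 called lower, Ly6g and Cxcr2 (itself a chemokine receptor), and Mpo not (0.271 ± 0.116 and 0.327 ± 0.166 CPM, adjusted p = 0.802), and the summed level was 9.47 to 11.3 CPM in control and 2.66 to 3.09 CPM in sorafenib libraries. Ly6g had 120 to 125 counts in control and 0 to 2 in sorafenib libraries, so it passed the filter only through the group in which it was high. Elane, Ngp and Ltf had at most 3 counts in every library. The neutrophil symbols Camp, Csf3r, Mmp8, Retnlg, S100a8 and S100a9 were not in the table. The part of these cells in the fall of Ccr2 and Ccr3 was not tested. Of 12 B cell symbols 10 were in the table and 8 were tested, with 6 called higher (among them Pax5, Cd79a, Cd79b, Cd22 and Blk) and 1 lower (Ebf1). The summed level was 27.5 to 35.7 CPM in control and 37.7 to 39.3 CPM in sorafenib libraries. Ebf1 alone held 19.6 ± 0.946 CPM of it in control and 5.72 ± 0.897 CPM in sorafenib libraries. Blk had 5 to 26 counts in control and 38 to 69 in sorafenib libraries, so it passed the filter only through the group in which it was high. Ms4a1 had at most 2 counts and Cr2 at most 5 in every library, and Ighd and Ighm were not in the table. NK and CD8 T cell markers had 1 called higher (Cd8b1) and 2 lower (Gzma and Prf1) of 5 tested, with sums of 24.8 to 31.6 and 12.2 to 14.4 CPM. Most of the control sum was Gzma, at 16.5 ± 2.98 CPM in control and 1.4 ± 0.397 CPM in sorafenib libraries. Cd8b1 stood at 6.37 ± 0.38 and 9.4 ± 1.2 CPM. Klrb1c had at most 1 count in every library, and Klra8 and Ncr1 were not in the table.

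Ccr1, Ccr3 and Ccr2 lie beside each other on chromosome 9 in the order of the RefSeq annotation of GRCm38.p6, with only Ccr1l1, a further receptor gene, between Ccr1 and Ccr3. Xcr1, Cxcr6, Fyco1 and Ccr9 precede them in that order, while Ccr4 and Ccr8 lie elsewhere on the same chromosome. The stretch from Ccr1 to Ccr2 held log2 fold changes of -1.03, -2.38 and -1.51 for its tested genes, and the next gene up the list with a tested value, Cxcr6, had 0.26. Ccr1l1 and Xcr1 had at most 2 counts in any library and were not tested. Some of these genes are close relatives, and the sources used here do not give how reads shared between genes were counted. Their separate values are therefore uncertain.

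Levels of different receptors were set side by side with FPKM, fragment counts scaled by gene length and library total. In control cells the order of mean FPKM was Cxcr4 at 109 ± 7.85, Ccr4 at 96.96 ± 7.5, Ccr8 at 74.7 ± 4.4, Cxcr6 at 4.77 ± 0.77, Ccr2 at 0.759 ± 0.0467, Ccr3 at 0.426 ± 0.0402, Ccr1 at 0.302 ± 0.0794 and Ccr9 at 0.00406 ± 0.00703 (SD, n = 3). Each receptor exceeded the next in all 3 control libraries, and no neighbours in the order overlapped in range, though Ccr3 at its lowest (0.387) was close to Ccr1 at its highest (0.378). In sorafenib cells Ccr8 came first at 98.2 ± 3.14 FPKM, then Ccr4 at 74.5 ± 2.85, Cxcr4 at 71.3 ± 2.82, Cxcr6 at 6.03 ± 0.558, Ccr2 at 0.28 ± 0.149, Ccr1 at 0.156 ± 0.0631, Ccr3 at 0.0855 ± 0.0409 and Ccr9 at 0.00204 ± 0.00354. There the ranges of Ccr4 and Cxcr4 overlapped, as did those of Ccr2 and Ccr1 and those of Ccr1 and Ccr3. Control levels of Cxcr4, Ccr4 and Ccr8 exceeded those of 96.3%, 95.7% and 94.4% of tested genes, that of Cxcr6 48.1% and that of Ccr2 21.9%.

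The order among the 3 abundant receptors rests on the gene lengths behind the FPKM. Those lengths, recovered from the counts, were 2876 bases for Cxcr4, 4042 for Ccr4 and 1156 for Ccr8, against 1808, 3093 and 1175 exon bases in GENCODE M21. With the latter lengths, Cxcr4 led in both groups, at 174 ± 12.5 in control and 113 ± 4.48 in sorafenib cells, and Ccr8 was at 96.6 ± 3.09 beside Ccr4 at 97.3 ± 3.73 in sorafenib cells. A shift of the ratio between 2 receptors from group to group does not depend on length or on library scaling.

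Within a library, the ratio of Ccr8 to Cxcr4 FPKM was 0.725, 0.658 and 0.668 in control and 1.37, 1.39 and 1.37 in sorafenib cells. The ratio was 2.02-fold higher with sorafenib and the groups did not overlap (exact two-sided permutation p = 0.1, adjusted over 3 ratios 0.15, where 3 libraries against 3 cannot go below 0.1). The ratio of Ccr8 to Ccr4 was 0.736, 0.795 and 0.783 in control and 1.4, 1.23 and 1.33 in sorafenib cells, 1.71-fold higher (exact permutation p = 0.1, adjusted 0.15). The ratio of Cxcr4 to Ccr4 was 1.02, 1.21 and 1.17 in control and 1.02, 0.884 and 0.97 in sorafenib cells, and the groups overlapped (exact permutation p = 0.2, adjusted 0.2). These 3 ratios were chosen after the values were seen.

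**Figure D3:**
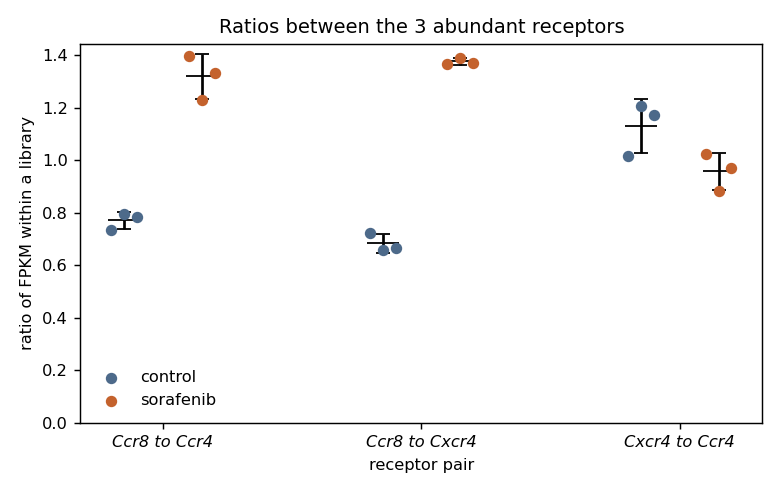
Ratio of FPKM between 2 receptors within each library (y axis, from 0) for the 3 pairs of abundant receptors (x axis). Points are libraries, horizontal bars group means and error bars SD. Both ratios with Ccr8 as the numerator lie between 0.658 and 0.795 in control and between 1.23 and 1.4 in sorafenib libraries, while the Cxcr4 to Ccr4 ratio overlaps between groups.

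Summed over the 8 receptors, FPKM was 286, 273 and 304 in control and 256, 248 and 248 in sorafenib libraries (exact permutation p = 0.1). Cxcr4, Ccr4 and Ccr8 together made up 97.8% ± 0.411 of that sum in control and 97.4% ± 0.196 in sorafenib cells. Ccr8 took 26.2%, 25.8% and 26% in control and 39.8%, 38.6% and 39.3% in sorafenib libraries. Cxcr4 took 36.2%, 39.2% and 38.9% in control and 29.1%, 27.7% and 28.6% in sorafenib libraries, and Ccr4 35.6%, 32.4% and 33.2% in control and 28.4%, 31.3% and 29.5% in sorafenib libraries. Cxcr6 took 1.67% ± 0.357 and 2.41% ± 0.185. For 7 of the 8 shares, Ccr9 being the exception, the groups did not overlap (exact permutation p = 0.1 each, adjusted over the 8 receptors 0.114), so no share could pass a threshold of 0.05. The 8 shares are parts of the same sum and so are not independent of each other. Cxcr6 FPKM itself overlapped between groups, at 4.23 to 5.65 in control and 5.49 to 6.60 in sorafenib libraries. In CPM the groups did not overlap for 36.3% of all tested genes. As shares of CPM, which are not per length, Ccr8 took 10.7% in control and 17.9% in sorafenib cells and Ccr4 48.5% and 47.5%. The groups then overlapped for Ccr4 and Ccr1, as they also did in shares computed with GENCODE M21 lengths.

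**Figure D4:**
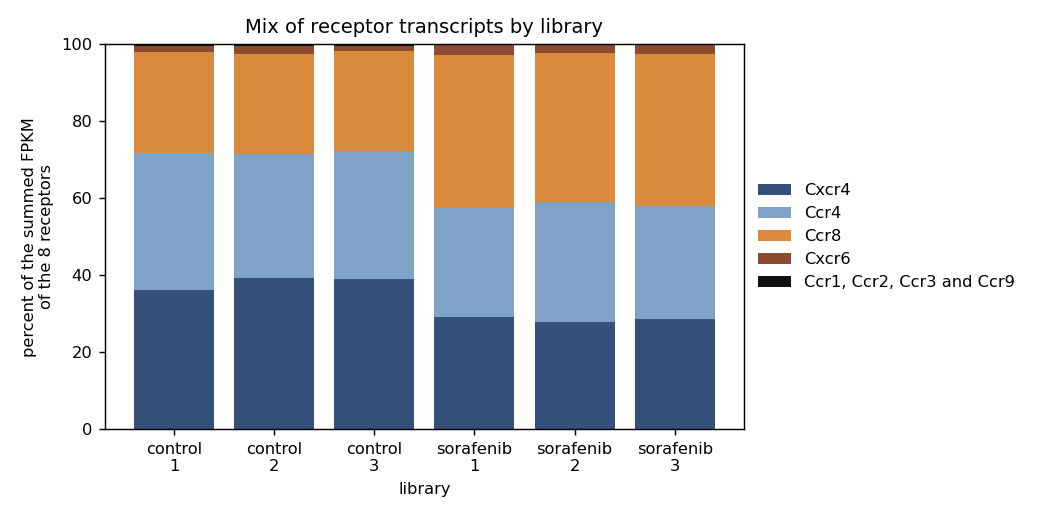
Percent of the summed FPKM of the 8 receptors (y axis) contributed by each receptor in each of the 6 libraries (x axis). Ccr8 rises from 26.2%, 25.8% and 26% in the control libraries to 39.8%, 38.6% and 39.3% in the sorafenib libraries, and Ccr1, Ccr2, Ccr3 and Ccr9 together form a band barely visible at the top.

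Each called receptor was set against the 8766 or 8767 other tested genes whose log2 CPM averaged 3 or more. Likeness was the root-mean-square difference of centred log2 CPM over the 6 libraries. The genes most like Cxcr4 were Egln3, a prolyl hydroxylase that acts on HIF (0.05), Gja1, which encodes connexin 43 (0.05), and Gatm, an enzyme of creatine synthesis (0.05). For Ccr4 they were Ctsa, a lysosomal carboxypeptidase, G6pc3, a glucose 6-phosphatase subunit, and Flywch1, each at 0.02 to 0.03. For Ccr8 they were Ubash3a, a suppressor of T cell receptor signalling, Tnfrsf1b, a receptor for tumour necrosis factor, and Dctd, a nucleotide deaminase, at 0.02 to 0.03. For Ccr3 they were Pamr1, Ebf1 and Enpp2, at 0.36 to 0.45, and for Ccr2 F3, Lilrb4b and Ppm1j, at 0.36 to 0.39. The likeness is therefore close for the abundant receptors and loose for the scarce ones, against medians over all compared genes of 0.36 for Cxcr4, 0.25 for Ccr4, 0.21 for Ccr8, 1.22 for Ccr3 and 0.89 for Ccr2.

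The other chemokine receptors and the chemerin receptor moved in both directions. Of 17 symbols 16 were in the table and 10 were tested, with 3 called higher and 4 lower by edgeR. The shares over all tested genes were 8.51% higher and 9.43% lower. The median log2 fold change of the 10 was 0.05, against -0.01 over all tested genes. Cxcr1 fell 2.97-fold, from 30.7 ± 2.8 to 10.4 ± 1.6 CPM, and Cxcr2 fell 2.61-fold, from 6.39 ± 1.03 to 2.45 ± 0.269 CPM, both being receptors for neutrophil-attracting chemokines. Cmklr1, the chemerin receptor, fell 2.48-fold, but did not pass once control replicate 3 was left out (adjusted p = 0.0519). Ccrl2, which binds chemerin without signalling, rose 3.61-fold, from 2.61 ± 0.822 to 9.41 ± 1.8 CPM. Cxcr3, the Th1 receptor, rose 2.27-fold and Ccr6, the Th17 receptor, rose 1.74-fold, from 1.45 ± 0.0343 and 3.6 ± 0.484 CPM in control cells. Ccr7, the lymph node receptor, was the most abundant of all at 792 ± 81.1 CPM. With sorafenib it stood at 685 ± 62.3 CPM, a difference that did not pass (adjusted p = 0.198).

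Of 18 symbols of ligands of the 8 receptors 14 were in the table and 8 were tested, with 1 called higher and 0 lower. The shares over all tested genes were 8.51% higher and 9.43% lower. Ccl5, which binds CCR1 and CCR3, rose 3.55-fold, from 2.7 ± 0.631 to 9.57 ± 0.544 CPM (adjusted p = 7.59e-05 by edgeR). The CCR4 ligand Ccl22 stood at 28.4 ± 5.07 CPM without and 28.95 ± 3.51 CPM with sorafenib (adjusted p = 0.927). Ccl17, the other CCR4 ligand, stood at 0.544 ± 0.462 and 0.836 ± 0.293 CPM (adjusted p = 0.528). The most abundant ligand transcript was Mif, a cytokine that also binds CXCR4, at 648 ± 100.2 CPM without and 662 ± 28.1 CPM with sorafenib (adjusted p = 0.885). Cxcl16 had 1.92 ± 0.00738 and 1.64 ± 0.166 CPM (adjusted p = 0.546). Cxcl12, the ligand of CXCR4, had 1 to 8 counts in any library and Ccl1, a ligand of CCR8, 0 to 2, so neither was tested.

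Of 37 G protein and chemotaxis signalling genes 35 were tested, with 3 called higher and 3 lower and a median log2 fold change of -0.01, beside 8.51% and 9.43% of all tested genes. Pik3cg, the catalytic subunit of the phosphoinositide 3-kinase that G proteins activate, fell 1.44-fold, from 187 ± 7.55 to 129 ± 10.5 CPM, while its regulatory subunit Pik3r5 rose 1.47-fold, from 27.2 ± 1.13 to 39.9 ± 3.01 CPM. Rassf5, which couples RAP1 to integrins, rose 1.48-fold and Arhgef6, a RAC exchange factor, rose 1.5-fold. The other called genes were Gna13 and Elmo1, both lower. Of 18 tested genes of desensitisation and trafficking 1 was called higher and 1 lower. Arrb1, a β-arrestin, fell 1.35-fold, from 502 ± 52.2 to 372 ± 18.9 CPM, and Rgs3, a brake on G proteins, rose 1.28-fold. Leaving out sorafenib replicate 1 or 3 ended the Arrb1 call (adjusted p of 0.061 and 0.054), as did each fit on FPKM (up to 0.151). The Rgs3 call ended with control replicate 3 or any sorafenib library left out and in 2 of 3 fits on FPKM (adjusted p up to 0.109).

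Adhesion molecules that act with chemokine receptors in homing were called higher in 5 and lower in 3 of 18 tested. Their median log2 fold change was 0.13, and 8.51% of all tested genes were called higher and 9.43% lower. Itgae, the αE integrin of epithelial T cells, rose 2.91-fold, from 6 ± 1.06 to 17.5 ± 1.42 CPM, and Icam1 rose 1.37-fold. Cd44 and Fut7 were also called higher and Selplg and Icam2 lower. St3gal4, a sialyltransferase used for selectin ligands, fell 1.39-fold, a call lost on log2(FPKM + 1) without a filter (adjusted p = 0.0934) and on log2(FPKM + 0.1) (adjusted p = 0.053).

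Chemoattractant receptors for lipids and other ligands were called higher in 2 and lower in 6 of 16 tested. Their median log2 fold change was -0.07, and 8.51% of all tested genes were called higher and 9.43% lower. Ltb4r1, the leukotriene B4 receptor, fell 3.18-fold, from 10.3 ± 0.92 to 3.22 ± 0.287 CPM. The leukotriene receptors Cysltr2 and Cysltr1 fell 2.95-fold and 1.95-fold, the latter from 105 ± 15.4 to 53.8 ± 7.03 CPM, and Gpr18 fell 1.9-fold. S1pr3 and Gpr15 were also called lower and Gpr55 and Lpar6 higher.

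Transcription factors linked to these receptors were called higher in 5 and lower in 7 of 25 tested. Their median log2 fold change was -0.14, and 8.51% of all tested genes were called higher and 9.43% lower. Hif1a, an activator of Cxcr4 in hypoxic cells, fell 1.58-fold, from 1211 ± 89.8 to 764 ± 36.97 CPM, and Maf, a factor of Th2 cells, fell 1.86-fold. Klf2, a factor of naive cell trafficking, rose 1.85-fold, from 8.12 ± 0.0438 to 14.99 ± 0.697 CPM, and Foxp3, the factor of regulatory T cells, rose 2.03-fold. Satb1, Stat3, Runx3, Prdm1 and Tbx21 were also called lower and Gata3, Rxra and Rarg higher. Retinoic acid and gut homing genes, the list that holds Ccr9, were called higher in 2 and lower in 3 of 10 tested. The same shares over all tested genes, 8.51% and 9.43%, stand beside these counts. The retinoid receptors Rxra and Rarg both rose 1.43-fold and Crabp2, a retinoic acid carrier, fell 2.45-fold, with Rxrb also called lower. Gpr15, a receptor for the large intestine, fell 1.39-fold, a call lost in 8 of 18 alternatives (adjusted p up to 0.137), among them the omission of control replicate 3 or of any sorafenib library.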

How the data were processed

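The 6 RNA-seq libraries were used as deposited by the authors, in a table of raw counts and a table of FPKM. The submitters' processing notes list GRCm39 and the tools fastp, HISAT2, HTSeq, DESeq2 and R 3.2.0, without their roles. Strand setting was not given in the sources used here. The deposited FPKM could be recomputed from counts, column totals and 1 length per gene within a relative tolerance of 0.001.

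filterByExpr (minimum count 10) kept 13255 genes. Groups were compared over all of them with edgeR 4.0.16 in R 4.3.3, by the robust quasi-likelihood test with TMM factors and no covariate (4 residual degrees of freedom). Adjustment was by Benjamini-Hochberg at 0.05, and SE came from the test statistic. In 4 simulated draws with 200 changed genes each, the fit recovered 54.75% of 1.5-fold and 76.25% of 2-fold changes. Of its calls there, 5.95% were false. CPM are TMM-scaled. Shares and ratios had exact two-sided permutation tests (scipy 1.17.1). The 3 libraries per group limit precision.

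The members and lists were chosen with earlier results of these data known. Named are the 8 receptors, per list up to 4 called genes with the smallest adjusted p, or 2 with the smallest p where none passed, defining markers of other cell types, and the 3 genes most like each called receptor. Cxcr3, Ccr6, Cmklr1, Ccr7, Fyco1, Ccl17, Ccl22, Mif, Mpo, Cxcl16, Cxcl12, Ccl1, Kit, Cd4, Ccr1l1 and genes given only as called were added after their values were seen. So were Clec7a, Adgre1, Cd68 and Cr2. Some genes of these lists are counted but not reported here by name.

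Alternatives were other scaling (DESeq2, upper-quartile, total counts), no filter, at least 1 CPM in 3 libraries, a replicate block, DESeq2 1.42.0, limma-voom (limma 3.58.1), limma-trend on log2(FPKM + 1), either unfiltered or kept at a mean FPKM of 0.5, and on log2(FPKM + 0.1), and each library left out. Removal of a gene length trend and GENCODE M21 lengths were chosen after seeing the data.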

Additional observations from a re-analysis of the deposited data

How the results depend on the processing

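All 4 receptors called lower kept the call in every alternative that tested them, with 3 or 4 called lower in each. Ccr3 was filtered out of the filtered FPKM fits and so counted in none of them. Values of Ccr2 and Ccr3 were nearer 0 on log2(FPKM + 1), at -0.46 and -0.39, since the pseudocount exceeds their level. Left-out libraries moved the log2 fold change of Ccr2 between -2.04 and -1.26 and of Ccr3 between -2.63 and -2.03. Receptors called higher ranged from 0 to 2 with a library left out, and all called genes from 1243 to 4325 against 2378, with 4325 without control replicate 2, 1294, 1549 and 1243 without sorafenib replicates 1, 2 and 3. On unfiltered log2(FPKM + 1), 1423 were called. Total counts only gave 64.4% of calls as higher and filtered log2(FPKM + 1) 65.3%, against 47.4%. The difference in the Ccr9 share ranged from -0.00149 to 0.000824 percentage points and changed sign without control replicate 2, which held 2 of its 3 reads. With a replicate block 2139 genes were called, 1031 higher and 1108 lower, and it changed no call among the 8 receptors. Deviations of same-numbered libraries from their group means had correlations of -0.06, 0.15 and 0.10, against -0.178 to 0.0982 for libraries of unlike number. With so few libraries these values cannot decide whether equal numbers mean pairs. The labels state no pairs, so none were taken in the main fit. Depth limits Ccr9 and Ccr1, whose highest counts were 2 and 40.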
